A study of Homo sapiens with 17 samples.

Results

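The entry of human cells from G1 into S phase is set by a small gene group: the D-type cyclins CCND1, CCND2 and CCND3, their kinases CDK4 and CDK6, the CIP/KIP inhibitors CDKN1B and CDKN1C, and the INK4 inhibitors CDKN2B, CDKN2C and CDKN2D. These 10 genes, listed by name with earlier results of these data known and with no threshold on measured values, were read from the 58278 gene rows counted in every one of 17 RNA-seq libraries. All libraries came from MOLM13, an acute myeloid leukaemia cell line that carries the MLL-AF9 fusion. Cells had received CRISPR knockout guides against HOXA9 (HOXA9_KO, n = 3), against SAFB (SAFB_KO, n = 3) or a non-targeting control (NT, n = 3) in one experiment, and guides against MEIS1 (MEIS1_KO, n = 4) or a non-targeting control (NT_MEIS1ex, n = 4) in a second one. HOXA9 and MEIS1 are homeodomain transcription factors that sustain this type of leukaemia, while the SAFB protein attaches chromatin to the nuclear scaffold and also binds RNA. Whether the cells were pools or clones, and how long after guide delivery they were taken, was not stated.

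In G1, a D cyclin joins CDK4 or CDK6, and the pair phosphorylates the retinoblastoma protein, which releases E2F factors to switch on genes for DNA replication. INK4 proteins bind CDK4 and CDK6 and keep the cyclin out, whereas CIP/KIP proteins bind cyclin-kinase pairs, above all those of CDK2. In MLL-rearranged leukaemia CDK6 is known as a kinase on which the cells depend, and in mice CDKN1B and CDKN2C are known as brakes on the cycling of blood progenitors.

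The libraries held 36177109 to 42512310 reads assigned to genes in HOXA9_KO, 30737884 to 44406323 in SAFB_KO and 39906727 to 67842104 in NT, and 23264176 to 29918249 in MEIS1_KO and 26836593 to 33232459 in NT_MEIS1ex. Each targeted transcript was lower in its own knockout and still present: HOXA9 averaged 21.4 ± 0.45 CPM in HOXA9_KO and 40.9 ± 0.97 CPM in NT (SD, n = 3 each), SAFB averaged 20.7 ± 1.42 CPM in SAFB_KO and 38.3 ± 4.07 CPM in NT (SD, n = 3 each), and MEIS1 averaged 11.2 ± 1.10 CPM in MEIS1_KO and 32.4 ± 0.82 CPM in NT_MEIS1ex (SD, n = 4 each). MEIS1 was also lower in HOXA9_KO, at 16.8 ± 0.82 CPM, and in SAFB_KO, at 39.7 ± 1.72 CPM, against 49.1 ± 1.06 CPM in NT (SD, n = 3 each). CPM here are counts per 1000000 reads, with library sizes scaled by TMM within an experiment. All 8 myeloid leukaemia markers averaged over 1 CPM in every group, but their summed level moved with the groups, at 29018 to 31930 CPM in HOXA9_KO, 13252 to 14944 CPM in SAFB_KO and 5394 to 5519 CPM in NT, and 7738 to 8121 CPM in MEIS1_KO and 4216 to 5882 CPM in NT_MEIS1ex. Of these 8 genes 5 were called higher and 3 lower in HOXA9_KO, 4 higher and 3 lower in SAFB_KO, and 4 were called higher in MEIS1_KO. Of 14 erythroid and megakaryocyte genes, 6 to 9 had no read in a given group and 2 or 3 averaged over 1 CPM, and the summed level of the list was 10.2 to 10.3 CPM in HOXA9_KO, 11.1 to 12.2 CPM in SAFB_KO and 12.6 to 13.8 CPM in NT, and 21.2 to 24.03 CPM in MEIS1_KO and 23.6 to 26.8 CPM in NT_MEIS1ex. The alpha globins HBA1 and HBA2 and the platelet factors PF4 and PPBP were at 0 in HOXA9_KO, SAFB_KO and NT. The 10 lymphoid genes summed to 2.15 to 3.02 CPM in HOXA9_KO, 8.04 to 8.90 CPM in SAFB_KO and 14.7 to 15.1 CPM in NT, and to 6.96 to 8.23 CPM in MEIS1_KO and 8.89 to 10.2 CPM in NT_MEIS1ex. CD3E was at 0 in HOXA9_KO, CD3G in SAFB_KO, CD3E, CD3G and CD2 in NT, CD3E and MS4A1 in NT_MEIS1ex, and none of the list in MEIS1_KO. Other library features moved with the groups. Mitochondrial ribosomal RNA took 31.9 to 35.5% of assigned reads in HOXA9_KO, 24.9 to 27.05% in SAFB_KO and 22.5 to 28.4% in NT, and at most 0.0094% in the MEIS1 experiment. Reads that fell in no annotated feature were 8.65 to 9.27% in HOXA9_KO, 10.6 to 12.7% in SAFB_KO and 16.4 to 18.1% in NT, without overlap. They were 7.58 to 9.15% in MEIS1_KO and 6.07 to 8.47% in NT_MEIS1ex. All 12 interferon response genes were called lower in both HOXA9_KO and SAFB_KO, and their summed level was 129 to 142 CPM in HOXA9_KO, 247 to 276 CPM in SAFB_KO and 1091 to 1476 CPM in NT, while in the second experiment it was 302 to 465 CPM in MEIS1_KO and 211 to 300.5 CPM in NT_MEIS1ex. The part of these features in the results below was not tested.

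Compared per kilobase of exon, CDK6 was the most abundant transcript of the group in the first experiment and CCND3 in the second. In HOXA9_KO, CDK6 stood at 49.4 ± 1.16 RPKM, followed by CCND3 at 23.6 ± 1.39, CDKN2C at 17.5 ± 0.81, CDK4 at 12.9 ± 0.23, CDKN1B at 11.4 ± 0.12, CCND2 at 6.14 ± 0.26 and CDKN2D at 1.52 ± 0.32 RPKM (SD, n = 3). CDKN1C at 0.160 ± 0.058 and CCND1 at 0.0375 ± 0.022 RPKM were lowest, and no neighbours in that order overlapped in HOXA9_KO. In NT, CDK6 stood at 46.9 ± 0.80 RPKM, CDKN2C at 29.8 ± 0.56, CCND3 at 22.7 ± 0.84, CDKN1B at 17.8 ± 0.50, CDK4 at 14.01 ± 0.89, CCND2 at 6.36 ± 0.24 and CDKN2D at 1.76 ± 0.24 RPKM (SD, n = 3). CCND1 at 0.231 ± 0.059 and CDKN1C at 0.220 ± 0.095 RPKM were lowest in NT and overlapped. CDKN2C thus stood below CCND3, CDKN1B below CDK4 and CCND1 below CDKN1C in HOXA9_KO, and above them in NT, while SAFB_KO had the same order as NT. In MEIS1_KO, CCND3 led at 64.6 ± 1.32 RPKM, and CDK6, CDKN2C and CCND2 followed with overlapping ranges at 39.1, 38.7 and 35.3 RPKM. CDK4 came next on average, at 33.1 RPKM, but CDKN2C in MEIS1_KO replicate 1, at 33.1 RPKM, lay within the CDK4 range of 32.5 to 33.6 RPKM. In NT_MEIS1ex, CCND3 led at 63.97 ± 3.30 RPKM, and CCND2, CDKN2C, CDK6 and CDK4 followed with overlapping ranges at 43.9, 41.3, 39.2 and 38.5 RPKM. CDK6 was 3.84 ± 0.13 times as abundant as CDK4 per kilobase in HOXA9_KO, 4.20 ± 0.23 times in SAFB_KO and 3.36 ± 0.26 times in NT, but 1.18 ± 0.06 times in MEIS1_KO and 1.03 ± 0.19 times in NT_MEIS1ex (SD). CCND3 made up 79.3% of the summed D cyclin level per kilobase in HOXA9_KO, 78.8% in SAFB_KO and 77.5% in NT, and 64.2% in MEIS1_KO and 58.8% in NT_MEIS1ex. Both experiments used the same cell line. These ratios and shares lie within a library and do not move with its scaling, but the cell batch and the library preparation cannot be told apart in the differences between experiments. The level of CDK4 has a further limit, as 43.2% of its exon sequence lies opposite TSPAN31, while 0.66% of CDK6's lies opposite another gene. Reads not counted for CDK4 because of this overlap would raise the ratio of CDK6 to it, which was not tested.

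**Figure D1:**
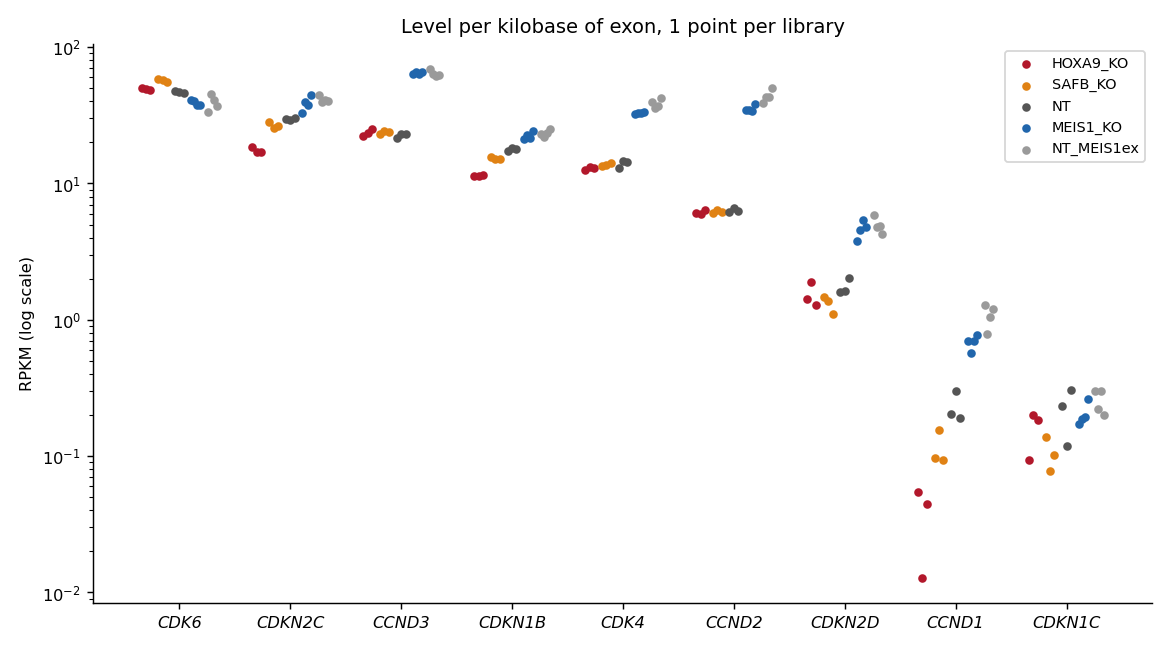
Level per kilobase of exon (RPKM, log axis) of the 9 detected genes, 1 point per library, coloured by group and ordered along the x axis by the NT mean. CDK6 lies between 46.0 and 58.8 RPKM in the 9 libraries of the first experiment, and CCND1 in HOXA9_KO lies lowest, between 0.0129 and 0.0549 RPKM.

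Of the 10 genes, 9 passed the filter on low counts in both experiments, and CDKN2B had no read anywhere. In HOXA9_KO against NT, 1 of the 9 was called higher and 4 were called lower at an adjusted p under 0.05 (edgeR quasi-likelihood test, Benjamini-Hochberg over all genes tested), beside 27.6% of 18876 genes called higher and 29.9% called lower. In SAFB_KO against NT, 1 was called higher and 3 lower, beside 20.2% and 15.3% of all genes tested. In MEIS1_KO against NT_MEIS1ex none was called higher and 3 were called lower, beside 4.97% and 3.84% of 15744 genes; none was higher at an unadjusted p under 0.05 either, nor by DESeq2 or limma-voom. The members' median log2 fold change was −0.20 in HOXA9_KO, −0.16 in SAFB_KO and −0.10 in MEIS1_KO, where that of all genes tested was −0.07, −0.02 and 0.00. The groups did not overlap for 4 of the 9 genes in HOXA9_KO against NT (62.6% of all genes tested), for 5 in SAFB_KO against NT (46.3%) and for 3 in MEIS1_KO against NT_MEIS1ex (15.7%). The 4 lower genes in HOXA9_KO include CCND1, which was under the filter's cutoff in all HOXA9_KO libraries. It was tested only through the groups where it is higher. The 4 lower calls, the median of −0.20 and the 4 genes without overlap all include CCND1, and its part in them is no evidence of a fall. With CCND1 included, the count of 5 called genes in HOXA9_KO is close to the background share. Both comparisons of the first experiment share the NT libraries. The split of all calls in these comparisons rests on the scaling. Of all calls, 48.0% were higher in HOXA9_KO, 56.9% in SAFB_KO and 56.5% in MEIS1_KO under TMM, against 23.5%, 23.6% and 68.5% where libraries were scaled by their reads in nuclear protein-coding genes.

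**Figure D2:**
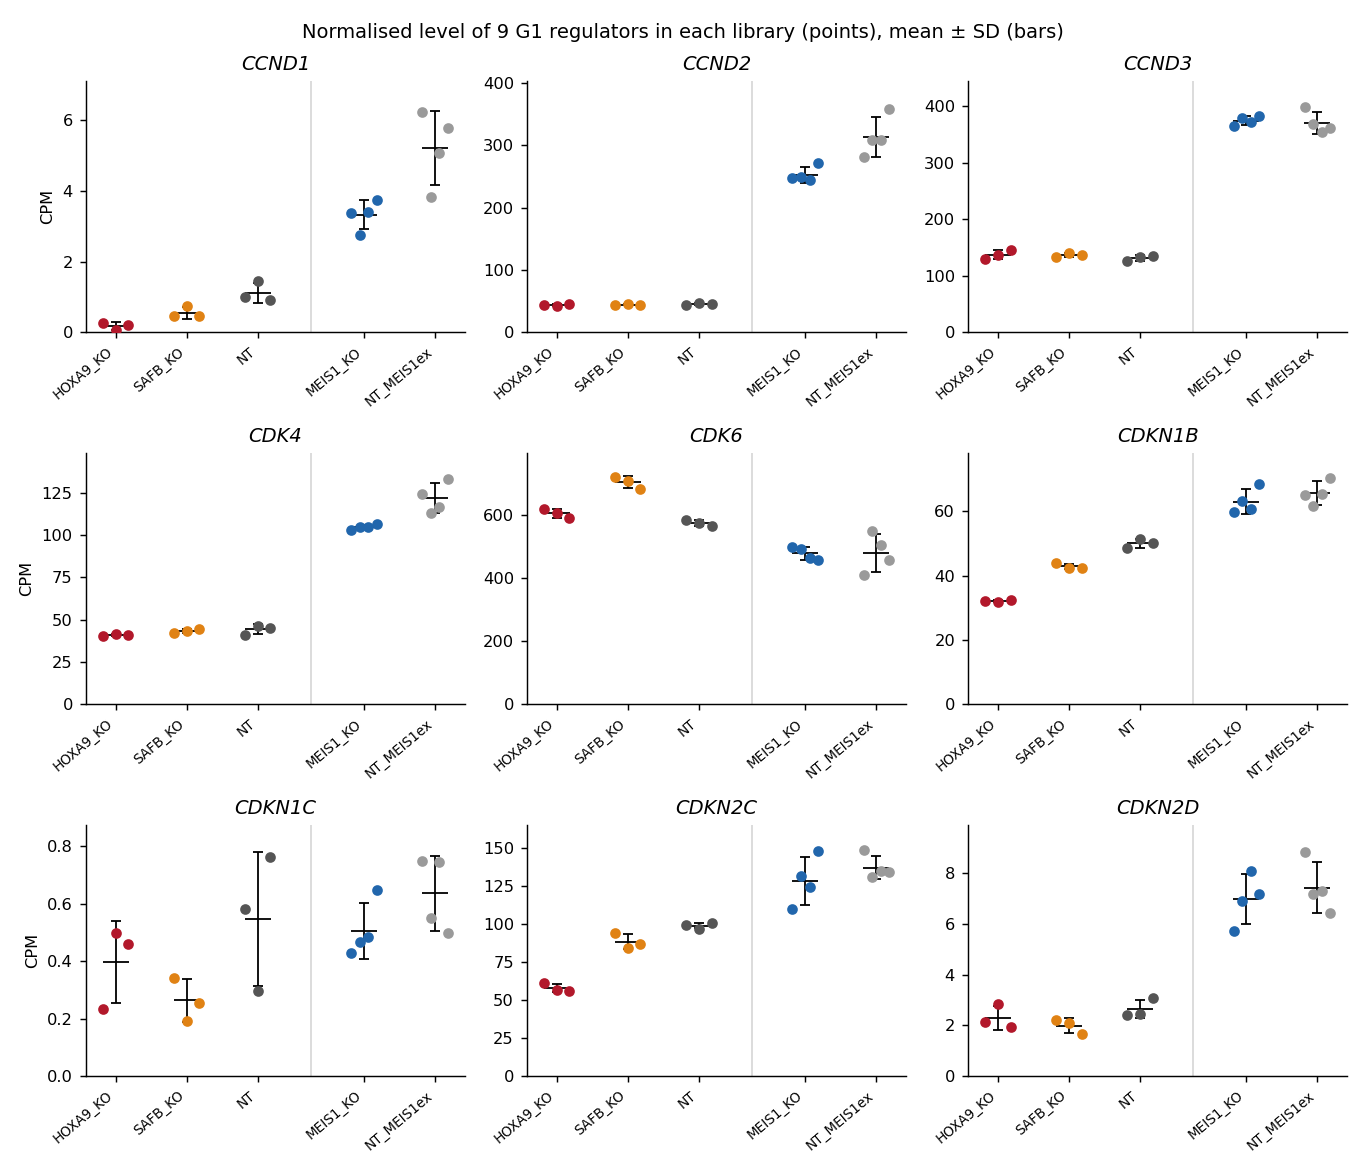
CPM of each gene in each of the 17 libraries (points, linear axis from 0), with the mean and SD of each group; the grey line parts the 2 experiments, which were scaled separately. Within the first experiment CDKN1B and CDKN2C are lowest in HOXA9_KO, higher in SAFB_KO and highest in NT, without overlap, and CCND2 lies between 42.4 and 47.4 CPM in all 9 libraries of the first experiment.

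Start-site sequence was available from RefSeq (GRCh38.p14) for 7 of the 10 genes, as 12 windows of 300 bases, each from 250 bases before to 50 bases after an annotated start. There was no entry for CCND1, CCND2 and CDKN1C. CDKN2C fell most among the well-counted members in HOXA9_KO, CDK6 rose in SAFB_KO and CDKN2B had no reads. For each of these 3 genes 1 stretch is printed, a part of a window that lies in no GENCODE 29 exon. Each reads 5′ to 3′ on the strand of its gene, and capitals mark matches to the words named after them, of which the printed parts of CDK6 and CDKN2B hold none. The stretches are chr1:50960495-50960744 (plus strand) for CDKN2C, chr7:92836595-92836823 (minus strand) for CDK6 and chr9:22009364-22009555 (minus strand) for CDKN2B. Another such stretch of CDK6, chr7:92833960-92834209 (minus strand), also without any of the words, is not printed.
CDKN2C: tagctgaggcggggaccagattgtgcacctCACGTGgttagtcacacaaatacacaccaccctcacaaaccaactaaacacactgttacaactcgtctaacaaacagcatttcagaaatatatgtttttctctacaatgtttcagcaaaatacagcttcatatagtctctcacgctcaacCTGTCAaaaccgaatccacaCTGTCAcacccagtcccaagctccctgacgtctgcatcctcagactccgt
CDK6: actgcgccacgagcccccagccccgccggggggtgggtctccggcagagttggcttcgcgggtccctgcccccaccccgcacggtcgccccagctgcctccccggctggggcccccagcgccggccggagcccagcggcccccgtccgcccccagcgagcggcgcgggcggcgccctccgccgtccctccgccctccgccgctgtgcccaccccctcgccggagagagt
CDKN2B: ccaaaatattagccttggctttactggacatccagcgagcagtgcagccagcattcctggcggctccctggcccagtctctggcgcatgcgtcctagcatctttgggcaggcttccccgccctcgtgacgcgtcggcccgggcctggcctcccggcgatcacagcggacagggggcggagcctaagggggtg
A set of 5 short words was searched on both strands in the full windows, none of which contains another. The E2F word, TTTCCCGC or TTTGGCGC, was in none of the 12 windows, and in 2.27% of all 35116 windows. The HOX-PBX word TGATTTAT and the C/EBP words TTGCGCAA and TTGCGTAA were in none of the 12 either, and in 0.846% and 0.313% of all windows. The MEIS word TGACAG was in 3 of the 12 windows, of CCND3 and CDKN2C, and in 15.8% of all windows. In the stretch of CDKN2C printed above it is found on the minus strand, read as CTGTCA, 70 and 50 bases before the start. The E-box CACGTG, the word bound by MYC and MAX, was in 4 of the 12 windows, of CDK4, CDK6 and CDKN2C, and in 7.26% of all windows. CDK4 has 3 copies in 1 window, 216, 196 and 101 bases before the start. CDKN2C has 1 in the printed stretch, 220 bases before the start, and CDK6 has 1 just past its start. These matches are descriptions of sequence and not of binding.

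Among the D cyclins, under TMM with all libraries of an experiment, CCND1 had lower levels in all 3 knockouts. Its test in HOXA9_KO is no support, because of the filter, and its SAFB_KO call did not hold without some single libraries. CCND2 passed the test in MEIS1_KO alone. CCND3, the most abundant of them, passed it nowhere under these settings. CCND1 (ENSG00000110092.3), the D cyclin of many solid tissues, lies at chr11:69641087-69654474 on the plus strand (GRCh38, GENCODE 29). It had 0.265, 0.0622 and 0.216 CPM in HOXA9_KO, 0.467, 0.750 and 0.453 CPM in SAFB_KO, and 0.987, 1.44 and 0.912 CPM in NT. These are low levels, resting on 18 reads over the HOXA9_KO libraries, 66 over SAFB_KO and 188 over NT, and the 3 groups did not overlap. The fitted log2 fold change was −2.60 ± 0.40 (SE) in HOXA9_KO (adjusted p = 2.29e-07), and since none of the HOXA9_KO libraries reached the filter's cutoff, 0.251 counts per 1000000 assigned reads without TMM scaling, the gene entered the test through SAFB_KO and NT. In SAFB_KO the change was −0.96 ± 0.32 (SE), with an adjusted p of 0.016 that became 0.14 without NT replicate 2, 0.069 without SAFB_KO replicate 1 and 0.073 without SAFB_KO replicate 3. In the MEIS1 experiment CCND1 had 3.38, 2.76, 3.38 and 3.75 CPM in MEIS1_KO, against 6.21, 3.81, 5.07 and 5.76 CPM in NT_MEIS1ex. Again the groups did not overlap, and CCND1 fell by 36.7% in MEIS1_KO (log2 fold change −0.66 ± 0.15 SE, adjusted p = 0.0084). In bulk RNA, fewer cells with a transcript and less of it per cell cannot be told apart, here and in every result that follows.

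CCND2 (ENSG00000118971.7), the D cyclin of many blood cells, lies at chr12:4273772-4305350 on the plus strand. It had 43.5, 42.4 and 46.0 CPM in HOXA9_KO, 43.3, 45.9 and 44.4 CPM in SAFB_KO, and 44.1, 47.4 and 45.0 CPM in NT, so that all 3 groups overlapped. The log2 fold change was −0.05 in HOXA9_KO, with a 95% interval of −0.15 to 0.05, and −0.03 in SAFB_KO, with an interval of −0.13 to 0.07. Under nuclear protein-coding scaling CCND2 was called lower in HOXA9_KO, at −0.30 (adjusted p = 8.91e-07), and in SAFB_KO, at −0.17 (adjusted p = 0.0049). In MEIS1_KO the gene had 247, 249, 244 and 272 CPM, against 280.4, 309, 309 and 357 CPM in NT_MEIS1ex. Every MEIS1_KO library lay below every NT_MEIS1ex library, and CCND2 fell by 19.5% (log2 fold change −0.31 ± 0.06 SE, adjusted p = 0.0045). CCND3 (ENSG00000112576.12), at chr6:41934933-42050357 on the minus strand, known in mice for its part in lymphocyte development, had 129, 137 and 145 CPM in HOXA9_KO, 133, 139.8 and 138 CPM in SAFB_KO, and 126, 134 and 135 CPM in NT. It had 366, 379, 372 and 383 CPM in MEIS1_KO, against 398, 369, 355 and 362 CPM in NT_MEIS1ex. These groups overlapped in all 3 comparisons, and the 95% intervals of the log2 fold change were −0.02 to 0.14 in HOXA9_KO, −0.02 to 0.13 in SAFB_KO and −0.08 to 0.11 in MEIS1_KO. In HOXA9_KO, CCND3 was called higher under RLE factors (adjusted p = 0.031). The same call came with only the 2 groups compared (adjusted p = 0.046) and without HOXA9_KO replicate 1 (adjusted p = 0.029). Nuclear protein-coding scaling called it lower there, at −0.19 (adjusted p = 3.42e-05). Of CCND2's exon sequence, 13.8% is shared with AC008012.1 on the same strand, and of CCND1's 10.3% lies opposite LTO1, which was itself lower in HOXA9_KO (log2 fold change −0.40 ± 0.10 SE, adjusted p = 5.56e-04). Reads that HTSeq marked as ambiguous between genes are in no gene's count. They were 6.09 to 7.96% in the libraries of the first experiment and 9.92 to 12.2% in those of the second. The stretch on the same strand is open to this loss under any strand setting. For the stretch on the opposite strand it depends on that setting, which was not stated.

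The kinases CDK4 and CDK6 bind the same D cyclins. CDK6 (ENSG00000105810.9), at chr7:92604921-92836594 on the minus strand, rose in SAFB_KO. It had 619, 608 and 591 CPM in HOXA9_KO, 721, 707 and 684 CPM in SAFB_KO, and 583, 576 and 564 CPM in NT, with no overlap between any pair of these groups. In SAFB_KO the rise was 22.6% (log2 fold change 0.29 ± 0.03 SE, adjusted p = 1.63e-11), and it passed the test under each of the 18 alternatives run, at 0.15 to 0.31. In HOXA9_KO the log2 fold change was 0.08 ± 0.03 (SE, adjusted p = 0.026), but it depended on the scaling: it was −0.17 (adjusted p = 8.92e-07) under nuclear protein-coding scaling and 0.02 (adjusted p = 0.56) where only genes averaging at least 2 CPM were kept. Its adjusted p was also 0.055 without NT replicate 2, 0.085 without NT replicate 3 and 0.098 without HOXA9_KO replicate 1. In the MEIS1 experiment CDK6 had 499, 493.1, 465 and 459 CPM in MEIS1_KO, against 409, 551, 504 and 457 CPM in NT_MEIS1ex. There the controls spanned the knockouts, and the log2 fold change was −0.0047 with a 95% interval of −0.16 to 0.15.

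CDK4 (ENSG00000135446.16), at chr12:57747727-57756013 on the minus strand, passed the test in MEIS1_KO and narrowly in HOXA9_KO. It had 103, 105, 105 and 106 CPM in MEIS1_KO, against 125, 113, 117 and 133 CPM in NT_MEIS1ex. The groups did not overlap, and the log2 fold change was −0.22 ± 0.05 (SE, adjusted p = 0.015). That adjusted p was 0.053 without MEIS1_KO replicate 2, 0.057 without MEIS1_KO replicate 3 and 0.063 without NT_MEIS1ex replicate 4. In the first experiment CDK4 had 40.1, 41.6 and 40.8 CPM in HOXA9_KO, 42.2, 43.2 and 44.6 CPM in SAFB_KO, and 41.2, 46.6 and 45.4 CPM in NT. HOXA9_KO and NT overlapped, and the log2 fold change of −0.12 ± 0.05 (SE, adjusted p = 0.045) lost its call under 14 of 18 alternatives, RLE factors (adjusted p = 0.17) and DESeq2 (adjusted p = 0.22) among them. The SAFB_KO interval was −0.13 to 0.07. Of CDK4's exon sequence, 43.2% lies opposite TSPAN31, whose own log2 fold change was −0.10 ± 0.07 (SE, adjusted p = 0.26) in HOXA9_KO and 0.02 ± 0.07 (SE, adjusted p = 0.90) in MEIS1_KO.

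Of the CIP/KIP inhibitors, CDKN1B fell in HOXA9_KO and less in SAFB_KO. CDKN1B (ENSG00000111276.10) encodes p27, which holds CDK2 inactive in resting cells, and lies at chr12:12715058-12722371 on the plus strand. It had 32.0, 31.8 and 32.5 CPM in HOXA9_KO, 43.8, 42.5 and 42.3 CPM in SAFB_KO, and 48.7, 51.5 and 50.2 CPM in NT. The 3 groups stood apart from each other, HOXA9_KO lowest. CDKN1B fell by 35.9% in HOXA9_KO (log2 fold change −0.64 ± 0.05 SE, adjusted p = 3.95e-16) and by 14.4% in SAFB_KO (log2 fold change −0.22 ± 0.05 SE, adjusted p = 1.59e-04). Both calls were kept under all 18 alternatives run. It had 59.7, 63.3, 60.8 and 68.5 CPM in MEIS1_KO, against 65.1, 61.7, 65.5 and 70.5 CPM in NT_MEIS1ex, with overlap and a 95% interval of −0.18 to 0.06. CDKN1C (ENSG00000129757.12), the gene of p57 and known as imprinted, at chr11:2883213-2885773 on the minus strand, was near the limit of detection, with 7 to 17 reads a library in HOXA9_KO, 9 to 11 in SAFB_KO and 15 to 43 in NT, and 13 to 15 in MEIS1_KO and 15 to 21 in NT_MEIS1ex. Its level was 0.232, 0.498 and 0.459 CPM in HOXA9_KO, 0.342, 0.193 and 0.255 CPM in SAFB_KO, and 0.582, 0.296 and 0.760 CPM in NT, where replicate 2 lay inside the range of the knockouts. In the MEIS1 experiment it was 0.427, 0.465, 0.484 and 0.646 CPM in MEIS1_KO, against 0.750, 0.550, 0.746 and 0.498 CPM in NT_MEIS1ex. No comparison of CDKN1C with its controls passed the test. The nearest was SAFB_KO, at a log2 fold change of −1.07 ± 0.45 (SE, adjusted p = 0.057), which was called under 5 of 17 alternatives and ranged from −1.36 to −0.78. At this depth the 95% intervals were wide, −1.30 to 0.42 in HOXA9_KO and −0.89 to 0.22 in MEIS1_KO.

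Of the INK4 inhibitors, CDKN2C fell in both knockouts of the first experiment. CDKN2C (ENSG00000123080.10) encodes p18, known from mouse studies to restrain the cycling of blood stem cells, and lies at chr1:50960745-50974633 on the plus strand. It had 61.1, 56.8 and 56.2 CPM in HOXA9_KO, 94.1, 84.3 and 87.1 CPM in SAFB_KO, and 99.3, 96.9 and 100.5 CPM in NT. All HOXA9_KO libraries lay far below the others, and SAFB_KO lay just below NT. The stretch before its start is printed above. CDKN2C fell by 41.4% in HOXA9_KO (log2 fold change −0.77 ± 0.04 SE, adjusted p = 1.51e-21), under all 18 alternatives, and by 10.6% in SAFB_KO (log2 fold change −0.16 ± 0.04 SE, adjusted p = 0.0014), where fitting all 17 libraries together ended the call (adjusted p = 0.09). In the MEIS1 experiment it had 109.9, 131, 124 and 148 CPM in MEIS1_KO, against 148, 131, 135 and 135 CPM in NT_MEIS1ex. The knockouts spanned all but one of the controls, and the 95% interval was −0.25 to 0.06. CDK6 was 2.83 ± 0.08 times as abundant as CDKN2C per kilobase in HOXA9_KO, 2.16 ± 0.10 times in SAFB_KO and 1.57 ± 0.05 times in NT (SD, n = 3 each), a ratio within each library that its scaling does not alter. In the MEIS1 experiment this ratio was 1.02 ± 0.16 in MEIS1_KO and 0.954 ± 0.17 in NT_MEIS1ex (SD, n = 4 each).

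CDKN2D (ENSG00000129355.6), the gene of p19, at chr19:10566462-10569059 on the minus strand, passed no test under TMM with all genes that met the count filter. It had 2.12, 2.83 and 1.92 CPM in HOXA9_KO, 2.21, 2.08 and 1.67 CPM in SAFB_KO, and 2.42, 2.45 and 3.06 CPM in NT, so that SAFB_KO lay below NT without overlap at a log2 fold change of −0.40 ± 0.18 (SE, adjusted p = 0.076). It had 5.71, 6.91, 8.07 and 7.19 CPM in MEIS1_KO, against 8.82, 7.18, 7.27 and 6.44 CPM in NT_MEIS1ex. The 95% intervals were −0.57 to 0.16 in HOXA9_KO and −0.34 to 0.15 in MEIS1_KO. Under nuclear protein-coding scaling CDKN2D was called lower in HOXA9_KO, at −0.45 (adjusted p = 0.027), and in SAFB_KO, at −0.54 (adjusted p = 0.016), and keeping genes averaging at least 2 CPM also gave a call in SAFB_KO, at −0.46 (adjusted p = 0.033). CDKN2B (ENSG00000147883.10), the gene of p15, at chr9:22002903-22009363 on the minus strand, had 0 reads in each of the 17 libraries, out of 601323796 assigned reads in all. A count of 0 allows up to 3 reads a library, which corresponds to 0.0406 to 0.129 CPM, counting error only. The neighbouring INK4 gene CDKN2A (chr9:21967753-21995301, minus strand), CDKN2A-DT and DMRTA1 were also at 0 in all libraries. These neighbours, and those in the next sentence, were looked up after the CDKN2B counts were seen. MTAP (chr9:21802543-21937651, plus strand), on the far side of CDKN2A, had 698 to 2371 reads a library, and CDKN2B-AS1 (chr9:21994778-22121097, plus strand), which runs across CDKN2B on the opposite strand, had 3 to 39. MTAP averaged 22.7 ± 0.70 CPM in HOXA9_KO, 29.7 ± 1.71 CPM in SAFB_KO and 32.2 ± 0.72 CPM in NT (SD, n = 3 each).

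**Figure D3:**
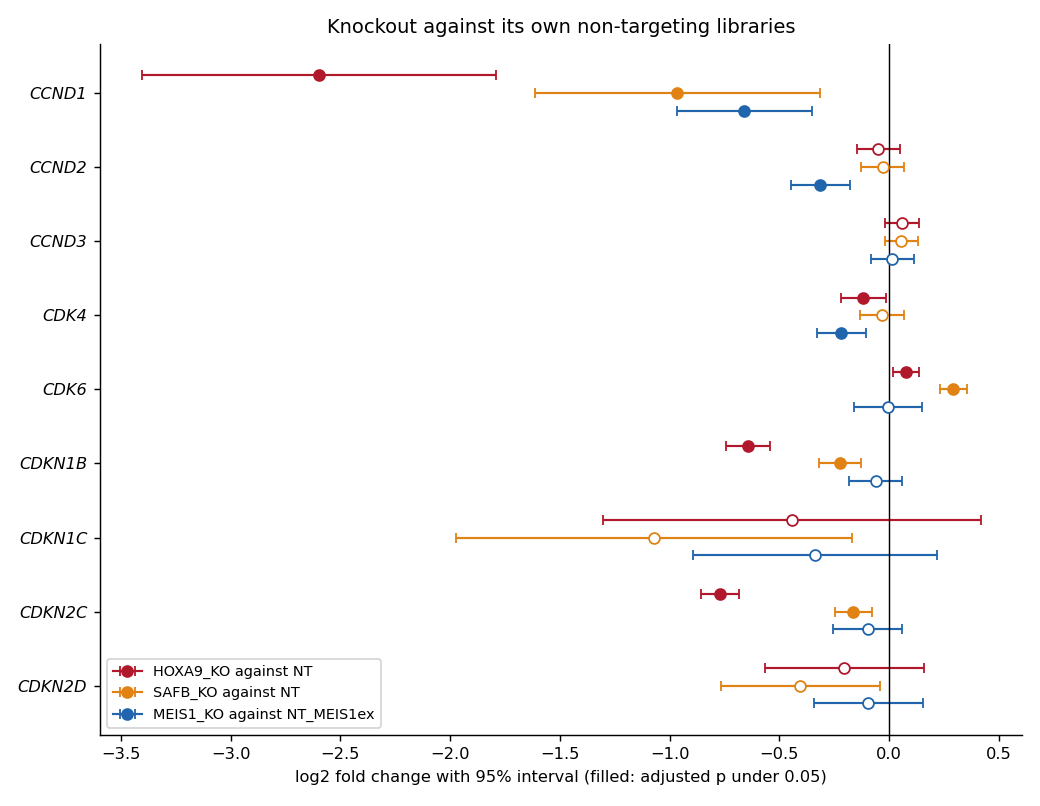
Log2 fold change of each gene (x axis) in each knockout against the non-targeting libraries of its own experiment, with 95% intervals; filled points passed an adjusted p of 0.05. CDKN1B and CDKN2C lie apart from 0 in HOXA9_KO and SAFB_KO, CCND2 in MEIS1_KO, and the intervals of CCND1 and CDKN1C are the widest.

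HOXA9_KO was next set directly against SAFB_KO. Of the 9 genes none was called higher in HOXA9_KO and 4 were called lower, beside 20.1% of all genes tested called higher and 20.5% called lower. CCND1 differed by a log2 fold change of −1.63 ± 0.44, CDKN2C by −0.61 ± 0.04, CDKN1B by −0.42 ± 0.05 and CDK6 by −0.22 ± 0.03 (SE; adjusted p = 0.0023, 5.96e-17, 1.45e-09 and 3.62e-08). CCND1, under the filter's cutoff in all HOXA9_KO libraries, was tested only through the groups where it is higher. The count of 4 lower includes its call, which is no evidence of a difference. The count at an unadjusted p under 0.05 was the same 0 higher and 4 lower, since the other 5 genes had unadjusted p of 0.10 to 0.93. Their 95% intervals reached from −0.12 to 0.08 for CCND2 and from −0.07 to 0.08 for CCND3. Of all calls 49.4% were higher in HOXA9_KO under TMM and 29.5% under nuclear protein-coding scaling.

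The change in one experiment was then tested against the change in the other, in a fit of all 17 libraries. For HOXA9 minus MEIS1, 1 gene was called higher and 3 lower, beside 24.5% and 19.7% of 18836 genes. CCND1 differed by −1.89 ± 0.41, CDKN2C by −0.63 ± 0.10 and CDKN1B by −0.54 ± 0.08 on the log2 scale (SE; adjusted p = 2.83e-04, 1.61e-05 and 5.33e-07), all lower in the HOXA9 comparison. Here too CCND1 entered the test through groups other than HOXA9_KO, and the 3 lower include it. CCND2 differed by 0.31 ± 0.08 (SE, adjusted p = 0.0027), its change being −0.05 in HOXA9_KO and −0.31 in MEIS1_KO. Under nuclear protein-coding scaling this difference was −0.016 (adjusted p = 0.88). For SAFB minus MEIS1, 2 genes were called higher and none lower, beside 12.4% and 8.49% of all genes. These were CDK6, by 0.30 ± 0.08, and CCND2, by 0.29 ± 0.08 (SE; adjusted p = 0.0064 and 0.011), and under nuclear protein-coding scaling neither passed the test (adjusted p = 0.38 and 0.30). CDK6 also missed it where only genes averaging at least 2 CPM were kept (adjusted p = 0.069). None of the other 7 genes was lower at an unadjusted p under 0.05; CDKN1B came nearest, at −0.16 ± 0.08 (SE, adjusted p = 0.15). CDKN1B was called lower under nuclear protein-coding scaling, at −0.33 (adjusted p = 8.95e-04), which left no gene higher and 1 lower, and where only genes averaging at least 2 CPM were kept, at −0.23 (adjusted p = 0.017). CDK4, at 0.20 ± 0.08 (SE, adjusted p = 0.067), was called higher under RLE factors (adjusted p = 0.037) and by DESeq2 (adjusted p = 0.039). It was also called higher without NT_MEIS1ex replicate 2 (adjusted p = 0.018) or replicate 3 (adjusted p = 0.045). Under nuclear protein-coding scaling CDK4 was at 0.020 (adjusted p = 0.87). Of all calls for HOXA9 minus MEIS1, 55.5% were higher under TMM and 19.4% under nuclear protein-coding scaling, and for SAFB minus MEIS1 59.3% and 14.9%.

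The scaling decides which of the small changes count as changes. TMM sets the libraries so that most genes differ little, and dividing instead by the reads in nuclear protein-coding genes moved the median log2 fold change of all genes by −0.25 in HOXA9_KO, −0.14 in SAFB_KO and 0.03 in MEIS1_KO. Nuclear protein-coding genes took 60.5 to 64.4% of assigned reads in HOXA9_KO, 69.5 to 71.6% in SAFB_KO and 67.5 to 73.6% in NT. These are shares of assigned reads, while the shift is measured from TMM-scaled library sizes, so the shares alone do not give it. Under nuclear protein-coding scaling 8 genes were called lower in HOXA9_KO and none higher. CDK6 was at −0.17 and CCND3 at −0.19, both less than the shift of all genes. In SAFB_KO 7 were called lower and CDK6 stayed higher, at 0.15 (adjusted p = 2.19e-05). In MEIS1_KO the same 3 genes were called lower. CDKN1B at −0.89 and CDKN2C at −1.02 in HOXA9_KO remained well beyond the shift. Under RLE factors, CCND3 was called higher in HOXA9_KO at 0.10 (adjusted p = 0.031) and CDK4 was not called.

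**Figure D4:**
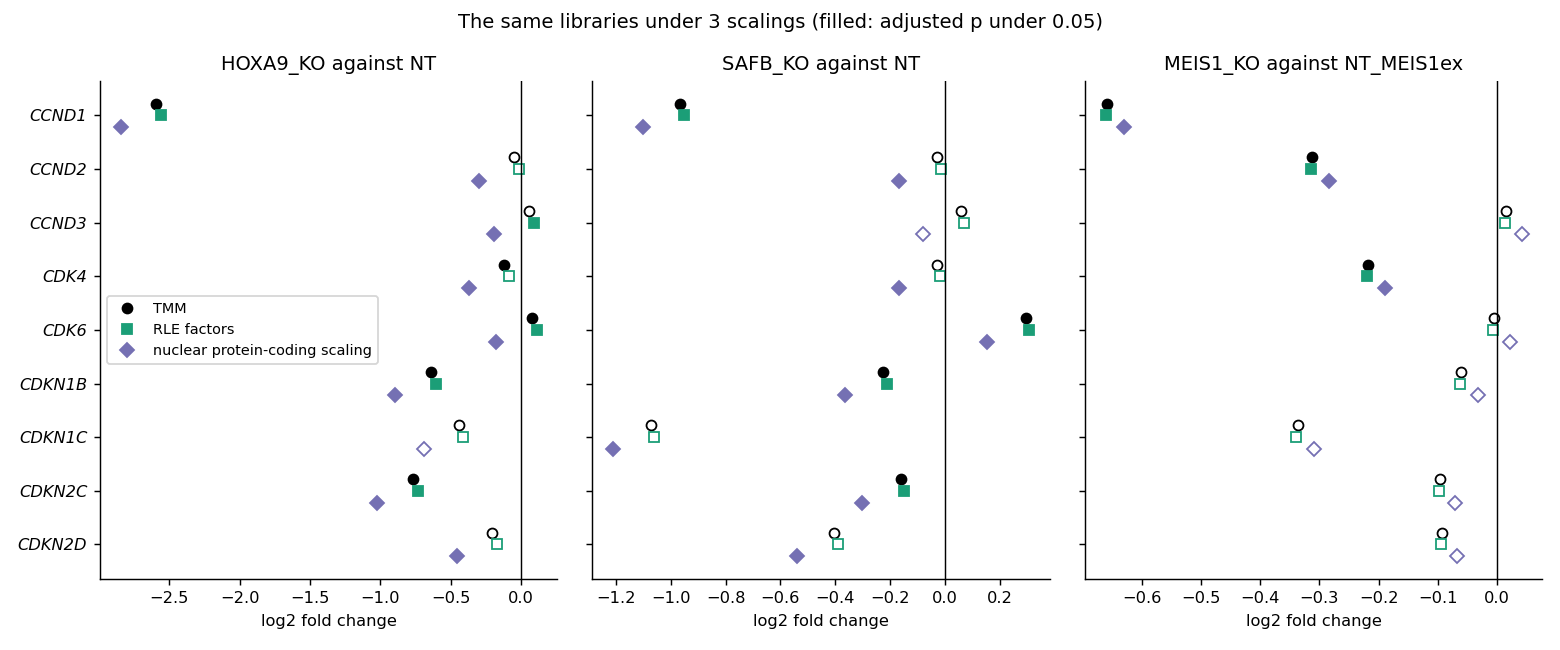
Log2 fold change of each gene (x axis, own range in each panel) under TMM, RLE factors and nuclear protein-coding scaling; filled symbols passed an adjusted p of 0.05. In HOXA9_KO the last scaling carries every gene to the left, CDK6 to −0.17, while in SAFB_KO CDK6 stays right of 0 at 0.15.

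Other genes of the same step were taken from 5 lists, whose counts stand beside 27.6% of all genes tested called higher and 29.9% called lower in HOXA9_KO. In HOXA9_KO most genes of the cyclin E, cyclin A and CDK2 step, which follows that of CDK4 and CDK6, fell: none of the 7 was higher and 6 were lower, at a median log2 fold change of −0.84 beside −0.07 for all genes tested. None was higher at an unadjusted p under 0.05 either, nor by DESeq2 or limma-voom. CCNA2, the S phase cyclin, averaged 64.6 ± 2.16 CPM in HOXA9_KO and 120.7 ± 3.07 CPM in NT (SD, n = 3 each; log2 fold change −0.90 ± 0.04 SE). CCNE2, a cyclin E, averaged 19.6 ± 0.91 CPM in HOXA9_KO and 40.2 ± 0.56 CPM in NT (SD, n = 3 each; −1.04 ± 0.06 SE). CDC6, which loads the replicative helicase, changed by −0.97 ± 0.06 and CDK2 by −0.66 ± 0.05 (SE), and the largest adjusted p of these 4 genes was 6.2e-15. Of the 13 pocket protein, E2F and DP genes 2 were higher and 8 lower, with a median of −0.52, and under nuclear protein-coding scaling 1 was higher and 12 were lower. The 4 with the smallest p were the repressor E2Fs E2F8 (−1.23 ± 0.08 SE) and E2F7 (−0.90 ± 0.07 SE), the pocket protein gene RBL1 (−0.58 ± 0.05 SE) and the dimer partner TFDP2 (−0.84 ± 0.08 SE). Among the other inhibitors and p27 turnover genes, 1 of 7 tested rose and 5 fell. The one that rose was CDKN1A, the gene of the CIP/KIP protein p21, at 902 ± 36.5 CPM in HOXA9_KO and 223 ± 10.1 CPM in NT (SD, n = 3 each; log2 fold change 2.02 ± 0.03 SE, adjusted p = 6.48e-43). It thus moved opposite to CDKN1B, of the same protein family. UHRF2, a ubiquitin ligase, changed by −1.18 ± 0.04, the SKP2 cofactor CKS1B by −0.82 ± 0.06 and the phosphatase gene CDKN3 by −1.01 ± 0.08 (SE). Of the 3 CDK-activating kinase genes MNAT1 was lower, by −0.26 ± 0.07 (SE, adjusted p = 9.14e-04), while limma-voom called 2 of the 3 lower and nuclear protein-coding scaling all 3. Of the 5 D cyclin turnover genes 1 was higher and 3 were lower. There GSK3B, whose kinase marks cyclin D1 for breakdown, was higher by 0.25 ± 0.04 (SE), but at 0.0010 under nuclear protein-coding scaling, and FBXO4, which helps to target cyclin D1 for breakdown, changed by −0.59 ± 0.08 (SE). Under RLE factors 2 of these 5 were higher and 1 was lower, and under nuclear protein-coding scaling none was higher and 4 were lower.

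In SAFB_KO, where 20.2% of all genes tested were called higher and 15.3% lower, 2 of the 13 pocket protein, E2F and DP genes were higher and 3 lower, a share near that of all genes, and under nuclear protein-coding scaling none was higher and 7 were lower. RB1, the retinoblastoma gene itself, averaged 176 ± 4.14 CPM in SAFB_KO and 204 ± 10.1 CPM in NT (SD, n = 3 each; log2 fold change −0.22 ± 0.03 SE, adjusted p = 1.23e-06). TFDP1 changed by 0.14 ± 0.04, E2F5 by −0.32 ± 0.10 and E2F4 by 0.12 ± 0.04 (SE), and TFDP1 and E2F4 were at 0.0010 and −0.020 under nuclear protein-coding scaling. Of the 7 cyclin E, cyclin A and CDK2 genes 1 was higher and 3 were lower. The licensing factor CDT1 changed by −0.41 ± 0.07, CCNA2 by −0.18 ± 0.04, CDK2 by −0.18 ± 0.05 and CCNE1 by 0.27 ± 0.09 (SE), the last at 0.13 (adjusted p = 0.22) under nuclear protein-coding scaling. CDKN1A again rose, to 465 ± 5.27 CPM in SAFB_KO against 223 ± 10.1 CPM in NT (SD, n = 3 each; log2 fold change 1.06 ± 0.03 SE, adjusted p = 1.49e-30), while UHRF2 (−0.45 ± 0.04 SE), CKS1B (−0.25 ± 0.06 SE) and CKS2 (−0.20 ± 0.06 SE) fell. No CDK-activating kinase gene was called by edgeR, DESeq2 or limma-voom, and none had an unadjusted p under 0.05, but under nuclear protein-coding scaling 2 of the 3 were lower, CCNH at −0.18 (adjusted p = 0.0089) and MNAT1 at −0.23 (adjusted p = 0.0042). Of the 5 D cyclin turnover genes GSK3B was higher, by 0.16 ± 0.04 (SE, adjusted p = 0.0015), and at 0.021 (adjusted p = 0.71) under nuclear protein-coding scaling.

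In MEIS1_KO few of these genes passed the test, and 4.97% of all genes tested were called higher and 3.84% lower. None of the 13 pocket protein, E2F and DP genes was called by edgeR, DESeq2 or limma-voom, and 2 were lower at an unadjusted p under 0.05 by each. Of the 7 cyclin E, cyclin A and CDK2 genes 2 were lower. CDT1 averaged 135 ± 5.55 CPM in MEIS1_KO and 177 ± 12.3 CPM in NT_MEIS1ex (SD, n = 4 each; log2 fold change −0.38 ± 0.05 SE, adjusted p = 2.35e-04), and the phosphatase gene CDC25A changed by −0.21 ± 0.06 (SE, adjusted p = 0.043), a call that nuclear protein-coding scaling ended (−0.19, adjusted p = 0.083), leaving CDT1 as the 1 lower. CDKN1A averaged 641 ± 12.8 CPM in MEIS1_KO and 512 ± 7.81 CPM in NT_MEIS1ex (SD, n = 4 each; log2 fold change 0.32 ± 0.04 SE, adjusted p = 1.04e-04), and CKS1B changed by −0.23 ± 0.06 (SE, adjusted p = 0.015). Of the D cyclin turnover genes FBXO31, whose protein targets cyclin D1, was lower, by −0.25 ± 0.06 (SE, adjusted p = 0.014). No CDK-activating kinase gene was called by edgeR or limma-voom and 1 was called lower by DESeq2, the same number as at an unadjusted p under 0.05 by edgeR.

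**Figure D5:**
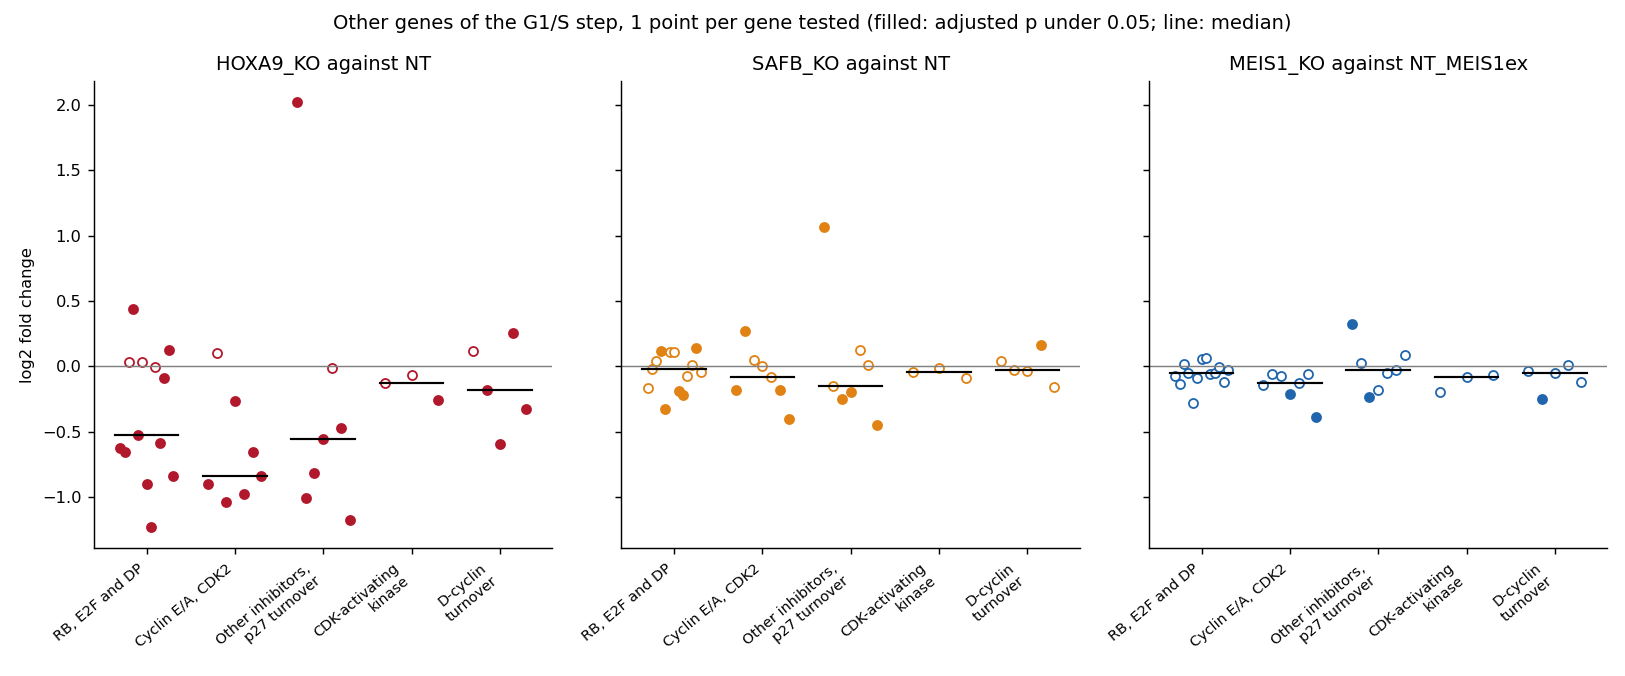
Log2 fold change (y axis) of each gene tested in the 5 lists (x axis), 1 point per gene, filled where the adjusted p was under 0.05, with the median of each list as a line. In HOXA9_KO 6 of 7 cyclin E, cyclin A and CDK2 genes lie below 0 as filled points, and CDKN1A is the highest point in all 3 panels, at 2.02 in HOXA9_KO, 1.06 in SAFB_KO and 0.32 in MEIS1_KO.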

How the data were processed

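RNA was measured by total RNA-seq with ribosomal depletion in 17 libraries. Tools listed in the submitters' processing notes were HTSeq 1.99.2, STAR 2.7.10a, bedtools and Trim Galore, with hg38 as build; the order of steps, the annotation release and the strand setting were not stated. The authors deposited 1 table of raw counts per library (58278 genes, all values whole; HTSeq's summary lines were left out). Gene symbols came from a table of identifiers (57392 rows matched) and coordinates from GENCODE 29 (57895 matched). The counts were tested with edgeR 4.0.16 (R 4.3.3: filterByExpr with a minimum count of 10, TMM, robust quasi-likelihood fit, Benjamini-Hochberg over all genes tested, called at an adjusted p under 0.05), in 1 fit of 9 libraries, 1 of 8 and, for differences between experiments, 1 of 17, with a common biological coefficient of variation of 4.63%, 6.75% and 5.92%. Tests were tried first on simulated counts in which few genes changed. For HOXA9_KO against NT, 51% of 98 changes of log2 0.5 and 68.7% of 99 changes of log2 1 were recovered. Changes as widespread as in these data were not simulated, so the simulation does not test the scaling. RPKM are TMM-scaled CPM per kilobase of merged exons. Reads that HTSeq assigned to no feature were 8.65 to 9.27% in HOXA9_KO, 10.6 to 12.7% in SAFB_KO and 16.4 to 18.1% in NT. Alternatives were RLE factors, nuclear protein-coding scaling, other filters, DESeq2 1.42.0, limma-voom (limma 3.58.1), a replicate block, other sets of libraries and leaving out each library. Genes named are the 10 members, the targets, up to 4 genes by smallest p of each list and, for each member, the gene most alike across libraries. Members and lists were chosen with earlier results of these data known. Nothing in the labels says that replicates were separate cultures, so p-values measure the spread between these samples, which may be technical.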

Additional observations from a re-analysis of the deposited data

How the results depend on the processing

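Dividing by the reads in nuclear protein-coding genes moved most values: the members called became 8 in HOXA9_KO against NT, 8 in SAFB_KO against NT, 7 in HOXA9_KO against SAFB_KO and 1 for SAFB minus MEIS1. It also turned the sign of CCND3 (−0.19) and CDK6 (−0.17) in HOXA9_KO, of CCND3 in SAFB_KO (−0.082), of CDK6 in MEIS1_KO (0.021), of CCND3 in HOXA9_KO against SAFB_KO (−0.11), of CCND2 (−0.016), CCND3 (−0.23), CDK4 (−0.18) and CDK6 (−0.20) for HOXA9 minus MEIS1, and of CCND3 for SAFB minus MEIS1 (−0.12). Keeping genes averaging at least 2 CPM left 3 members called in HOXA9_KO, where CCND1 and CDKN1C were not tested, and gave CCND3 at −0.011 and −0.023 for the 2 differences and CDK6 at 0.0062 in MEIS1_KO. Fitting all 17 libraries together left 3 members called in HOXA9_KO, called 2144 genes in MEIS1_KO against 1387, and gave CCND3 at −0.0021 in MEIS1_KO and CCND2 at 0.015 in HOXA9_KO against SAFB_KO, which was 0.0029 under RLE factors and under DESeq2. CDK6 in MEIS1_KO was 0.0039 by limma-voom. The causes of these moves were not tested.

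Leaving out 1 library at a time gave 3 to 5 members called in HOXA9_KO (3 without NT replicate 2 or 3) and 751 to 1772 genes called in MEIS1_KO, lowest without MEIS1_KO replicate 3, and 873 without MEIS1_KO replicate 2 and 884 without NT_MEIS1ex replicate 4. Values that crossed 0 this way had no call: CCND2 (−0.0502 to 0.0011) and CDK4 (−0.0822 to 0.0059) in SAFB_KO, CCND3 (−0.0068 to 0.0513) and CDK6 (−0.0736 to 0.0669) in MEIS1_KO, CCND2 (−0.0537 to 0.0077) and CCND3 (−0.0402 to 0.0433) in HOXA9_KO against SAFB_KO, CDKN1C (−0.35 to 0.21) and CDKN2D (−0.24 to 0.0645) for HOXA9 minus MEIS1, and CDKN2C (−0.12 to 0.021) for SAFB minus MEIS1. Deviations of same-numbered libraries from their group means correlated little (r of −0.15 to 0.089 over genes). With 3 or 4 libraries a group this cannot exclude a shared culture or day, and the labels do not say whether the numbers pair the samples. With a replicate block 10787, 6718 and 1195 genes were called in HOXA9_KO, SAFB_KO and MEIS1_KO, the members called stayed 5, 4 and 3 in number, and CDK6 in MEIS1_KO was 0.0028. Depth limits CCND1 and CDKN1C, which had at most 73 and 43 reads a library in the first experiment.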

Other observations

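For each of the 9 detected genes, the protein-coding gene whose level followed it most closely was sought among 10752 others averaging at least 2 CPM, by Pearson's r of log2 CPM over the 17 libraries after subtracting the mean of each experiment. These r are descriptions over libraries that share groups and carry no test. The highest were PTP4A3 for CDKN1B (r = 0.97), KLHDC4 for CCND1 (0.97) and ARHGAP23 for CDKN2C (0.96). PTP4A3 averaged 6.45 CPM in HOXA9_KO, 23.1 CPM in SAFB_KO and 42.6 CPM in NT, and 71.0 CPM in MEIS1_KO and 80.5 CPM in NT_MEIS1ex, the same order of groups as CDKN1B. ARHGAP23 averaged 3.98 CPM in HOXA9_KO, 6.75 CPM in SAFB_KO and 8.83 CPM in NT, and 29.7 CPM in MEIS1_KO and 32.8 CPM in NT_MEIS1ex. Next came BCAP29 for CDK6 (0.93), POLR1H for CDK4 (0.92), PSMD14 for CCND2 (0.90) and FAM193A for CCND3 (0.89). BCAP29 averaged 56.8 CPM in HOXA9_KO, 64.8 CPM in SAFB_KO and 52.0 CPM in NT. The lowest were ALOX12 for CDKN2D (0.83) and KCNS1 for CDKN1C (0.80).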
